A study of Homo sapiens with 6 samples.

Results

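The expression of 32 genes of endoplasmic reticulum (ER) protein folding and of the unfolded protein response was examined in a human podocyte cell line, out of 34644 gene names in the expression tables. The members were chosen by symbol, and read counts were summed over all rows that carry the same gene name. All 32 were in the tables, and 31 were expressed highly enough to be tested. They comprise 15 folding genes grouped here as ATF6-type, 7 stress genes grouped as ATF4-type, 7 genes of ER-associated degradation, and ATF6, XBP1 and ERN1. Which factor drives each gene was not measured.

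The study measured messenger RNA by sequencing in HPC, a cell line labelled as human podocytes with a wild-type genotype. Podocytes are the epithelial cells that wrap the capillaries of the kidney filter. Each of 2 groups had 3 libraries. The control group received NC lentivirus and the other received lentivirus that overexpresses PRDM16, a zinc-finger transcriptional regulator, and both groups were in high glucose for 24 h. No library without high glucose or without virus was analysed here, so every comparison is PRDM16 against NC lentivirus within high glucose. The sources used here do not state the promoter and dose of the virus, the glucose concentration, or whether the 3 libraries of a group came from separate cultures. The p-values therefore measure the spread between these libraries, which may be technical.

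Proteins that enter the secretory pathway fold in the ER with the help of HSP70-type and HSP90-type chaperones, lectins that hold sugar-bearing chains, and enzymes that form disulfide bonds. When unfolded protein accumulates, the sensors ATF6, IRE1 (encoded by ERN1) and PERK are activated: cleaved ATF6 and spliced XBP1 induce chaperones and degradation genes, while PERK phosphorylates eIF2α, which slows translation and favors production of the transcription factor ATF4. ATF4 is also made after other stresses that phosphorylate eIF2α, such as amino acid shortage, so ATF4 targets and ER chaperones need not move together. Podocytes secrete and maintain much of the glomerular basement membrane and depend on ER folding for slit-diaphragm proteins.

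Sequence elements known from ER stress genes were searched in promoter windows from RefSeq on GRCh38.p14, each running from 250 bases before to 50 bases after a gene start. A window was present for 29 of the 32 members; DERL1, PDIA3 and DERL3 had no entry. The ER stress response element, or ERSE, was searched as CCAAT followed after 9 bases by CCACG, on both strands. It was in 25 of 27305 genes, or 0.0916%, and in 7 members. They were 6 of the 14 chaperone genes with a window, and XBP1. These sites are shown because they are known regulatory letters of ER chaperone genes, with the fixed letters in capitals and each written in the direction of the element:
HSPA5, chr9:125241391-125241409: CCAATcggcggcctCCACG
HSP90B1, chr12:103930216-103930234: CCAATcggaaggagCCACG
HSP90B1, chr12:103930321-103930339: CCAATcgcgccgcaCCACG
CALR, chr19:12938384-12938402: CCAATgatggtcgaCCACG
CANX, chr5:179698778-179698796: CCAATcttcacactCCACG
PDIA6, chr2:10812853-10812871: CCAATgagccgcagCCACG
CRELD2, chr22:49918554-49918572: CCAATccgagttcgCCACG
XBP1, chr22:28800603-28800621: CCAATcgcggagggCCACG

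A second form, ERSE-II, was searched as ATTGG followed after 1 base by CCACG, on both strands. It was in 19 of the 27305 genes, or 0.0696%, and in the 3 members HYOU1, SDF2L1 and HERPUD1. The XBP1 element TGACGTGG was in 253 genes, or 0.927%, and HYOU1 was the 1 member that held it. HYOU1 is the member with the smallest p-value below, and its window held ERSE-II in 2 places; the upstream copy overlaps TGACGTGG. Its window (chr11:119057156-119057455, minus strand) is printed on the gene's strand, on which ERSE-II reads backwards, beside that of HSPA5 (chr9:125241294-125241593, minus strand), which has 1 ERSE. Capitals mark the matched letters:
HYOU1: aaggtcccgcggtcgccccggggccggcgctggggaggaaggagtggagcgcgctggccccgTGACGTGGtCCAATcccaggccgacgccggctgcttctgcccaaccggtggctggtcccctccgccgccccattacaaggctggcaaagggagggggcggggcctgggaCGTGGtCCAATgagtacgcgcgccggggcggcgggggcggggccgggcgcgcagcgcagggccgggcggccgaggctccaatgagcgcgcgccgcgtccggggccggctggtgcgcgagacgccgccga
HSPA5: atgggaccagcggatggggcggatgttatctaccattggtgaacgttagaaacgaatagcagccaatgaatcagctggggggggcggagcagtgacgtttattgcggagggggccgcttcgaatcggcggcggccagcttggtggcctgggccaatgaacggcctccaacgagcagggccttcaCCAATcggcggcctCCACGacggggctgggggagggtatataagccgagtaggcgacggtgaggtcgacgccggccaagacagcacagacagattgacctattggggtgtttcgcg

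The composite site of C/EBP proteins and ATF4, searched as TGATG followed after 1 base by AA on both strands, was in 1217 genes, or 4.46%, so a match to it is far less specific than a match to ERSE. Among the members it was in ASNS, ATF3, CHAC1 and HERPUD1. Neither ERSE form was matched in any of the 7 stress genes. The search finds exact letters within the window only, so a gene without a match may still carry such an element. The window of CHAC1 (chr15:40953221-40953520, plus strand), the stress gene with the smallest p-value, is shown with the composite site on its other strand in capitals:
CHAC1: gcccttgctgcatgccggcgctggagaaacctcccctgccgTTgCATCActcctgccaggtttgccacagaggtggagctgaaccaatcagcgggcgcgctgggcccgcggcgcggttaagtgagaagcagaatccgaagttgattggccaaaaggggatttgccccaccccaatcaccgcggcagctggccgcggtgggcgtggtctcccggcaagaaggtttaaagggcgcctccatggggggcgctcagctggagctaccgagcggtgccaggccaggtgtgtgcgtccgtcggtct

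Libraries held 20147135 to 41280350 counts, so 3 counts, the limit that a count of 0 allows, corresponded to 0.0727 to 0.149 CPM (counts per 1000000); this covers counting error only. PRDM16 was counted 0, 0 and 0 times with NC and 11, 18 and 24 times with PRDM16 virus, at least 13.9-fold higher against a floor of 3 counts over the NC group (edgeR adjusted p = 1.3e-04; exact two-sided permutation p = 0.1, the smallest that 3 against 3 can give). The deposited labels thus matched the direction of the targeted gene. Its level with PRDM16 virus was low, at 0.572, 0.647 and 0.577 CPM, below that of every tested member. Of the podocyte markers, PODXL (107 to 129 CPM), SYNPO (26.5 to 32.4) and CD2AP (144 to 257) were present, while NPHS1 had 0 to 3 counts and WT1 1 to 4 in every library. PAX8, a gene of parietal and tubular epithelium, was at 211 to 263 CPM and the simple-epithelial keratin KRT8 at 1187 to 1633. NPHS1 and WT1, defining markers of the labelled cell type, were therefore at or near 0 in all 6 libraries.

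The members spanned a wide range of levels. Levels between genes are compared here on the length-scaled FPKM scale (fragments scaled by gene length and library total), as means ± SD over the 6 libraries. CALR, the calcium-binding lectin calreticulin, had 1079 ± 76.4 FPKM and ranked 38 among all 34644 gene names. P4HB, the classical disulfide isomerase, was next with 777 ± 63.3 FPKM, rank 60, and its highest library (834) was below the lowest of CALR (939). PPP1R15A, the phosphatase subunit that reverses eIF2α phosphorylation, followed with 240.1 ± 46.5 FPKM. TRIB3, a pseudokinase induced by ATF4 and DDIT3, came after it with 201 ± 45.6 FPKM, and its range overlapped that of PPP1R15A. HSPA5 (BiP), the main HSP70 of the ER, had 106 ± 5.15 FPKM.

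Below HSPA5 in mean level came DDIT3 with 92.4 ± 13.5 FPKM, XBP1 with 90.3 ± 7.83, HSP90B1 with 82.1 ± 17.4 and ATF4 with 74.2 ± 5.56. From HSPA5 to ATF4, each gene overlapped the next in its range over libraries, so the order of neighbours was not resolved. The FPKM of ATF4 divides by 7716 listed bases, of which 47.2% are shared with MIEF1. In CPM, ATF4 was above HSPA5 (means 561 against 422 with NC, 585 against 406 with PRDM16). PDIA4 and PDIA3 (58.4 and 57.0 FPKM), and PDIA6, MANF, ATF3 and HERPUD1 (46.1 to 39.7), formed further runs of neighbours with overlapping ranges. HYOU1 had 7.34 ± 1.97 FPKM, position 28 of 32, and in the 3 NC libraries it stood at 7.50%, 7.54% and 9.39% of HSPA5. At the bottom were ERN1 (4.99 ± 0.649 FPKM), DNAJC3 (4.54 ± 1.12), ASNS (1.26 ± 0.277) and DERL3 (0.281 ± 0.464). The ASNS value leaves out CZ1P-ASNS, a readthrough gene that shares part of its exons and took most of the reads.

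**Figure D1:**
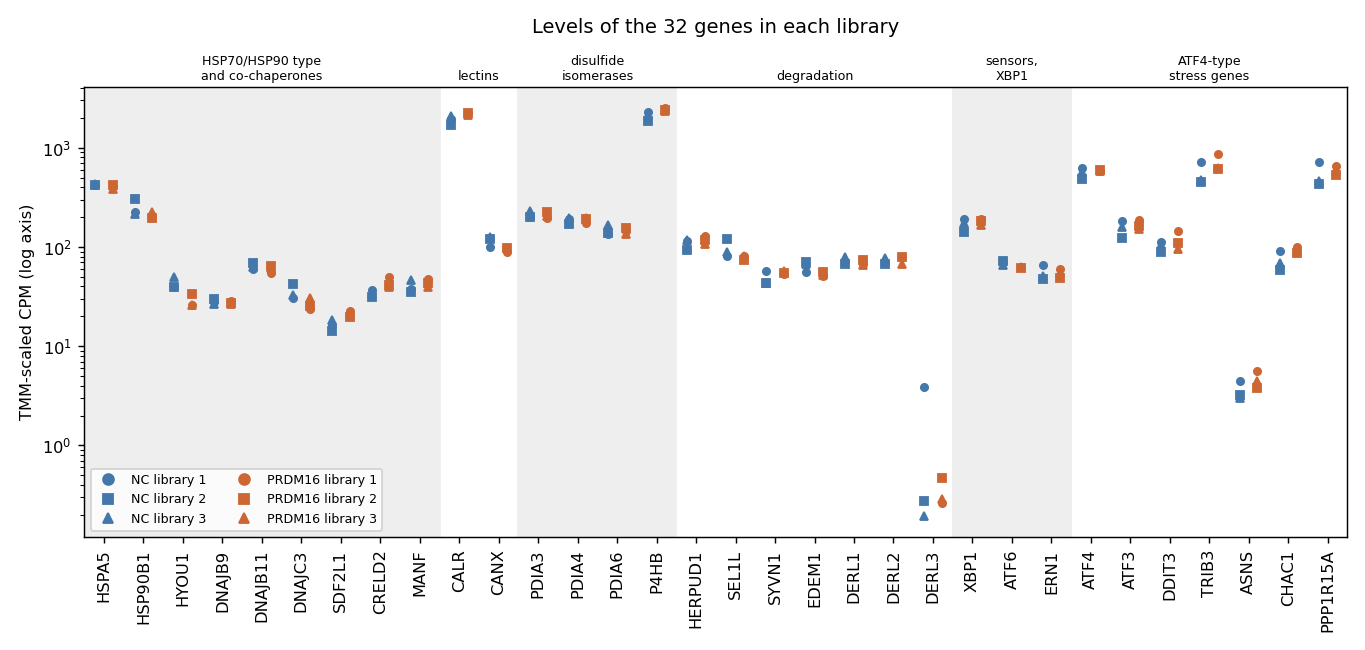
Level of each of the 32 members in each library, in TMM-scaled CPM on a log axis. NC and PRDM16 libraries are separate points, and members are ordered by role. These values are not scaled by gene length, so the order of genes can differ from that in FPKM. CALR and P4HB sit at the top, DERL3 at the bottom, and for most members the points of both groups overlap.

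No member passed the test of PRDM16 against NC virus. The test was edgeR's quasi-likelihood test on the counts, with an adjusted p under 0.05 over all 15053 genes tested as threshold; it called 18 genes, or 0.120%, 14 higher and 4 lower, and 0 of the 31 members. DESeq2 called 1 member, HYOU1, and limma-voom 0. At an unadjusted p under 0.05, 5 members were lower (16.1%, against 7.08% of all genes): HYOU1, DNAJC3, EDEM1, CANX and SEL1L. At the same threshold 3 were higher (9.68%, against 9.80% of all genes): CRELD2, SDF2L1 and CHAC1. The libraries of both groups did not overlap for 5 members lower with PRDM16 (16.1%, against 8.70%), which were HSPA5, HYOU1, CANX, EDEM1 and ATF6. They did not overlap either for 4 members that were higher (12.9%, against 12.4%), which were SDF2L1, CRELD2, CALR and P4HB.

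The fold changes of the members lay on both sides of 0. The log2 fold change was above 0 in 18 of 31 members (58.1%, against 47.3% of all genes), with a median of 0.06 beside -0.02 over all genes, and ranged from -0.58 to 0.39. Without NC replicate 2 it was above 0 in 14 of 31, with a median of -0.01 beside -0.01 over all genes. Fold changes in these libraries followed base composition and length: across genes, which are not independent replicates and share the same 6 libraries, Spearman's rho of the log2 fold change was 0.65 with GC content (n = 13575) and -0.40 with gene length (n = 15053). The member values that follow are therefore also given with these trends removed in each library, and for many of them that value is nearer 0. With the trends removed, 5 of 31 members had an unadjusted p under 0.05 in either direction, against 6.60% of all genes, and the members' median remained at 0.06. In bulk RNA, fewer cells that express a gene and less RNA per cell cannot be told apart.

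**Figure D2:**
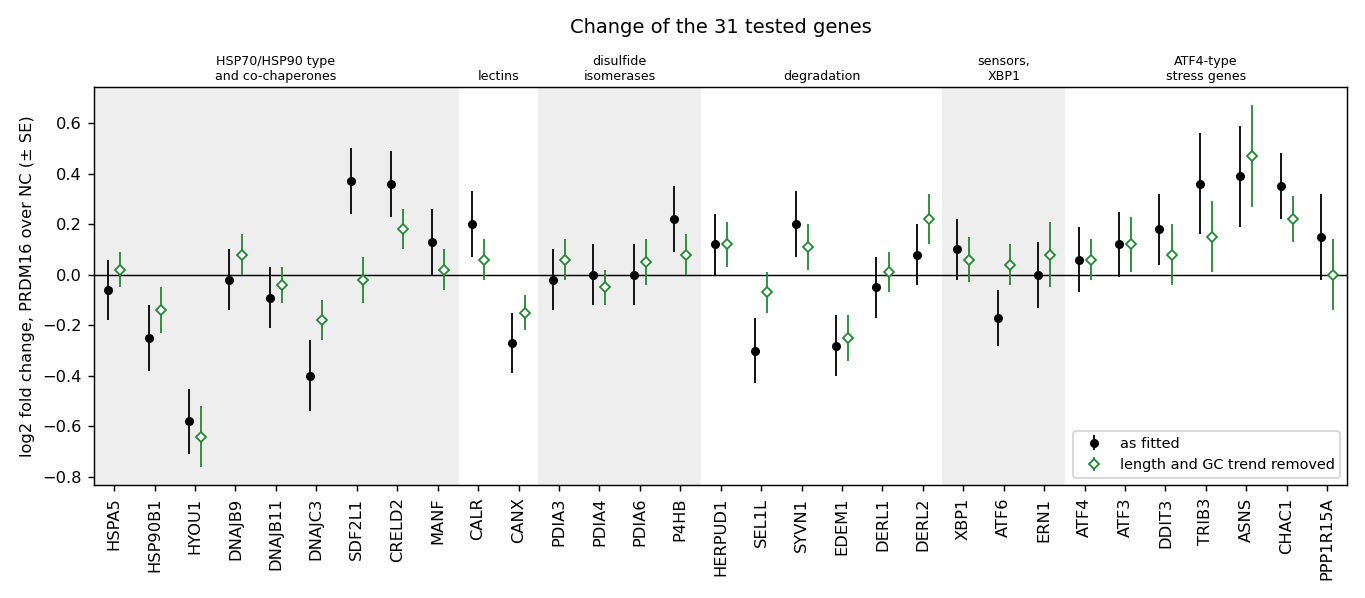
Log2 fold change of each tested member, PRDM16 against NC, with the standard error as bars, and the same value after the length and GC trends were removed. HYOU1 lies lowest at -0.58, the stress genes lie above 0 before the trends are removed, and SDF2L1 moves from 0.37 to -0.02 when they are removed.

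HYOU1 (chr11:119044187-119057205, minus strand, hg38), also called ORP150 or GRP170, is a large HSP70 relative that exchanges nucleotide on BiP. Its level was 39.1, 39.3 and 50.1 CPM with NC and 26.1, 33.4 and 26.3 CPM with PRDM16. Each PRDM16 library was below each NC library. The means were 42.8 ± 6.30 and 28.6 ± 4.14 CPM (SD, n = 3 each), a log2 fold change of -0.58 ± 0.13 (SE; edgeR adjusted p = 0.0619), or 0.667 times the NC level. It was the member with the smallest p, and the value was -0.64 ± 0.12 with the GC and length trends removed (edgeR adjusted p = 0.284).

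HYOU1 lay just outside the threshold, and 4 of 15 alternative analyses put it inside. These were upper-quartile scaling (edgeR adjusted p = 0.0366), no count filter (edgeR adjusted p = 0.00416), DESeq2 (adjusted p = 0.0292) and the fit without PRDM16 replicate 2 (edgeR adjusted p = 0.00706). The log2 fold change stayed between -0.71 and -0.45 in all 15, and the adjusted p between 0.00416 and 0.284.

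HSPA5 (chr9:125234853-125241343, minus strand), the partner of HYOU1, showed almost no difference. Its level was 419, 419 and 429 CPM with NC and 413, 418 and 388 CPM with PRDM16. The groups did not overlap, but by less than 1 CPM, and the log2 fold change was -0.06 ± 0.12 (edgeR adjusted p = 0.808), or 0.02 with the trends removed. The length-scaled level of HYOU1 was 5.08%, 6.41% and 5.44% of HSPA5 with PRDM16, each below the lowest NC share of 7.50%.

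Among the co-chaperones of BiP, DNAJC3 (p58IPK), a J-domain protein that also binds eIF2α kinases, was at 30.6, 42.2 and 32.5 CPM with NC and 23.9, 25.2 and 30.7 CPM with PRDM16. The groups overlapped at NC replicate 1 and PRDM16 replicate 3, and NC replicate 2 was the highest library. The log2 fold change was -0.40 ± 0.14 (edgeR adjusted p = 0.233). It was -0.18 with the trends removed and -0.24 without NC replicate 2.

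SDF2L1 and CRELD2 were the chaperone genes with the largest positive values. SDF2L1, a component of the BiP complex that works with DNAJB11, was at 16.5, 14.4 and 18.2 CPM with NC and 22.5, 19.5 and 21.4 CPM with PRDM16. All 3 PRDM16 libraries were above all NC libraries, with a log2 fold change of 0.37 ± 0.13 (edgeR adjusted p = 0.248). Its transcript is short and rich in GC, 825 bases and 66.2%, and with the trends removed the value was -0.02. CRELD2, an ER-resident protein with disulfide isomerase activity, was at 36.5, 31.3 and 33.4 CPM with NC and 49.6, 41.1 and 39.5 CPM with PRDM16. Here too the groups did not overlap, with a log2 fold change of 0.36 ± 0.13 (edgeR adjusted p = 0.244) and 0.18 with the trends removed.

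The other members of the HSP70 and HSP90 group stayed close to NC. HSP90B1 (GRP94), DNAJB9, DNAJB11 and MANF had log2 fold changes from -0.25 to 0.13, and all 4 had overlapping groups. For HSP90B1, NC replicate 2 stood apart at 305 CPM beside 196 to 227 CPM in the other 5 libraries, and its value was -0.25 with that library and -0.06 without it. With the trends removed, the 4 values were -0.14 for HSP90B1, 0.08 for DNAJB9, -0.04 for DNAJB11 and 0.02 for MANF.

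The lectins CALR and CANX, which hold newly made glycoproteins in the folding cycle, lay on opposite sides of 0. CALR was at 1957, 1695 and 2085 CPM with NC and 2252, 2234 and 2125 CPM with PRDM16. The groups did not overlap, though NC replicate 3 lay close to PRDM16 replicate 3, and the log2 fold change was 0.20 ± 0.13 (edgeR adjusted p = 0.383). It was 0.06 with the trends removed and 0.13 without NC replicate 2. CANX was at 99.4, 119 and 125 CPM with NC and 89.2, 97.5 and 98.1 CPM with PRDM16. Every PRDM16 library was below every NC library, with a log2 fold change of -0.27 ± 0.12 (edgeR adjusted p = 0.271), or -0.15 with the trends removed.

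The value of CANX depended on where its reads were assigned. The tables list CANX once on chromosome 5 and once on an alternate scaffold, and the scaffold listing held 82.4% to 86.7% of the counts in each library. That listing alone gave a log2 fold change of -0.33 ± 0.12 (edgeR adjusted p = 0.291), and the chromosome 5 listing -0.01 ± 0.14 (edgeR adjusted p = 0.982). How the counting shared reads between the listings is not stated, so the sum is used as the value of CANX.

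Of the 4 disulfide isomerases, PDIA3, PDIA4 and PDIA6 had log2 fold changes between -0.02 and 0.00 with overlapping groups, and between -0.05 and 0.06 with the trends removed. P4HB was at 2294, 1842 and 2145 CPM with NC and 2534, 2410 and 2352 CPM with PRDM16. Its groups did not overlap, with NC replicate 2 the lowest library, and the log2 fold change was 0.22 ± 0.13 (edgeR adjusted p = 0.362), or 0.08 with the trends removed and 0.14 without NC replicate 2. Over all 15 chaperone genes, 6 were above 0 and the median was -0.02, equal to that of all genes.

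The degradation genes remove misfolded proteins from the ER to the proteasome. EDEM1, a lectin that takes mannose-trimmed glycoproteins out of the folding cycle, was at 56.2, 70.6 and 67.2 CPM with NC and 51.1, 55.9 and 52.2 CPM with PRDM16. The groups did not overlap but nearly touched, and the log2 fold change was -0.28 ± 0.12 (edgeR adjusted p = 0.267); it was -0.25 with the trends removed. SEL1L, the scaffold of the HRD1 ubiquitin ligase, was at 80.5, 120.2 and 89.3 CPM with NC and 81.1, 73.6 and 81.6 CPM with PRDM16. The groups overlapped, NC replicate 2 was the highest, and the log2 fold change of -0.30 ± 0.13 (edgeR adjusted p = 0.271) was -0.10 without that library and -0.07 with the trends removed.

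SYVN1, which encodes the HRD1 ligase itself, had a log2 fold change of 0.20 ± 0.13 (edgeR adjusted p = 0.371), opposite in sign to its partner SEL1L. It was 0.11 with the trends removed, 0.34 without NC replicate 1 and 0.13 without NC replicate 3. HERPUD1, DERL1 and DERL2, further parts of the same channel complex, lay between -0.05 and 0.12, and between 0.01 and 0.22 with the trends removed. DERL3 was under the count filter, with 88 counts in NC replicate 1, 8 and 4 in the other NC libraries, and 5, 13 and 12 with PRDM16. All of these were on an alternate-scaffold listing, none on chromosome 22, and 89.2% of its exon bases overlap SMARCB1 on the opposite strand. The sources used here do not state whether the counting used strand, so the DERL3 count is uncertain. SYVN1 shares 2.4% of its exon bases with MRPL49, also on the opposite strand, and MRPL49 had 6860 to 14195 counts. Over the 6 degradation genes tested, the median log2 fold change was 0.01.

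The sensor genes differed little. ATF6, the membrane-bound factor whose cleaved form induces chaperones, was at 70.3, 73.0 and 66.0 CPM with NC and 62.7, 60.9 and 62.3 CPM with PRDM16. Its groups did not overlap, and the log2 fold change was -0.17 ± 0.11 (edgeR adjusted p = 0.398), turning to 0.04 with the trends removed. XBP1, the factor made by IRE1-dependent splicing, was at 191, 142 and 174 CPM with NC and 193, 183 and 168 CPM with PRDM16, a log2 fold change of 0.10 ± 0.12, which was 0.06 with the trends removed and -0.002 without NC replicate 2. ERN1 was at 65.1, 47.3 and 50.6 CPM with NC and 60.1, 48.3 and 55.2 CPM with PRDM16, a log2 fold change of 0.00 with fully overlapping groups, or 0.08 with the trends removed. Gene counts give neither the cleavage of ATF6 nor the splicing of XBP1.

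All 7 stress genes of the ATF4 type had log2 fold changes above 0, from 0.06 to 0.39 with a median of 0.18, but none passed the test, none had groups that did not overlap, and PPP1R15A was at -0.003 with the trends removed. ATF4 itself was at 627, 483 and 574 CPM with NC and 580, 597 and 579 CPM with PRDM16. The single lowest library was NC replicate 2, and the log2 fold change was 0.06 ± 0.13, the same with the trends removed. Its listed exons share 47.2% of their bases with MIEF1 on the same strand, so part of this count may belong to MIEF1. ATF4 is controlled largely at translation, which RNA counts do not measure.

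CHAC1, an enzyme that degrades glutathione and a close target of ATF4, was at 90.4, 58.8 and 69.7 CPM with NC and 100.1, 86.8 and 92.9 CPM with PRDM16. NC replicate 1 lay within the PRDM16 range and NC replicates 2 and 3 below it. The log2 fold change was 0.35 ± 0.13 (edgeR adjusted p = 0.255), or 0.22 with the trends removed, 0.53 without NC replicate 1 and 0.23 without NC replicate 2. TRIB3 was at 716, 447 and 476 CPM with NC and 865, 609 and 622 CPM with PRDM16. Replicate 1 was the high library in both groups, so that NC replicate 1 exceeded PRDM16 replicates 2 and 3. The log2 fold change of TRIB3 was 0.36 ± 0.20 (edgeR adjusted p = 0.35). It was 0.15 with the trends removed, 0.24 without NC replicate 2, 0.17 without PRDM16 replicate 1 and 0.58 without NC replicate 1.

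PPP1R15A (GADD34) was at 719.8, 428 and 462 CPM with NC and 648, 535 and 600.1 CPM with PRDM16. Its highest library was an NC library, and the log2 fold change of 0.15 ± 0.17 (edgeR adjusted p = 0.639) was 0.02 without NC replicate 2 and 0.40 without NC replicate 1. DDIT3 (CHOP), a factor linked to cell death after long ER stress, was at 113, 89.4 and 105 CPM with NC and 144, 109 and 95.5 CPM with PRDM16. Groups overlapped, and the log2 fold change was 0.18 ± 0.14 (edgeR adjusted p = 0.456), or 0.08 with the trends removed and -0.002 without PRDM16 replicate 1. DDIT3 shares 5.8% of its exon bases with MARS1 on the opposite strand, and MARS1 had 7132 to 14513 counts. Use of strand in the counting is not stated, so part of the DDIT3 count may belong to MARS1. ATF3, a factor induced by ATF4, had a log2 fold change of 0.12, the same with the trends removed, with NC replicate 2 the lowest library.

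ASNS, asparagine synthetase, was at 4.41, 3.23 and 2.97 CPM with NC and 5.67, 3.81 and 4.47 CPM with PRDM16. NC replicate 1 lay above PRDM16 replicate 2, and the log2 fold change was 0.39 ± 0.20 (edgeR adjusted p = 0.303), or 0.47 with the trends removed and 0.23 without PRDM16 replicate 1. Its exons share 69.5% of their bases with the readthrough gene CZ1P-ASNS, which took most of the reads. Summed, both were at 19.6, 17.5 and 18.3 CPM with NC and 28.5, 24.8 and 22.8 CPM with PRDM16. The summed groups did not overlap, and the log2 fold change was 0.46 ± 0.13 (edgeR adjusted p = 0.153). This sum was chosen after the values were seen.

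The chaperone group and the stress group were then set side by side in each library, as the mean of log2(CPM + 0.5) over the 15 and over the 7 genes; no test is given for these means. The chaperone mean was 6.88, 6.90 and 6.98 with NC and 6.89, 6.92 and 6.88 with PRDM16. It was the steadier of both groups, with a difference of -0.02 between means of 6.92 ± 0.05 and 6.89 ± 0.02 (SD, n = 3 each). The stress mean was 7.34, 6.82 and 6.98 with NC and 7.47, 7.18 and 7.20 with PRDM16. It was highest in replicate 1 of each group, and NC replicate 1 was above PRDM16 replicates 2 and 3.

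The difference in the stress mean was 0.23 on the log2 scale, between 7.05 ± 0.27 and 7.28 ± 0.16, which is less than the SD of the NC libraries. Stress minus chaperone mean was 0.46, -0.08 and 0.00 with NC and 0.58, 0.26 and 0.32 with PRDM16, a difference of 0.26 with overlapping groups. That difference was 0.15 without NC replicate 2, 0.16 without PRDM16 replicate 1 and 0.43 without NC replicate 1. The NC spread came from opposite ends: NC replicate 1 was the highest NC library in 7 of 7 stress genes, and NC replicate 2 was the lowest of all 6 libraries in 6 of 7. PRDM16 replicate 1 was the highest of its group in 6 of 7. Without NC replicate 2, 5 of 7 stress genes were above 0 with a median of 0.10, ATF4 (-0.03) and ATF3 (-0.01) being the exceptions, and the difference in the stress mean was 0.13. Without NC replicate 1 it was 0.37, and without PRDM16 replicate 1 it was 0.14.

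Base composition moved with this contrast as well. The median GC content was 46.6% in the chaperone genes, 55.4% in the stress genes and 50.0% over all genes. With the length and GC trends removed, the stress mean differed by 0.15, the chaperone mean by -0.04 and stress minus chaperones by 0.20, and 6 of 7 stress genes stayed above 0 with a median of 0.12; the exception was PPP1R15A.

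**Figure D3:**
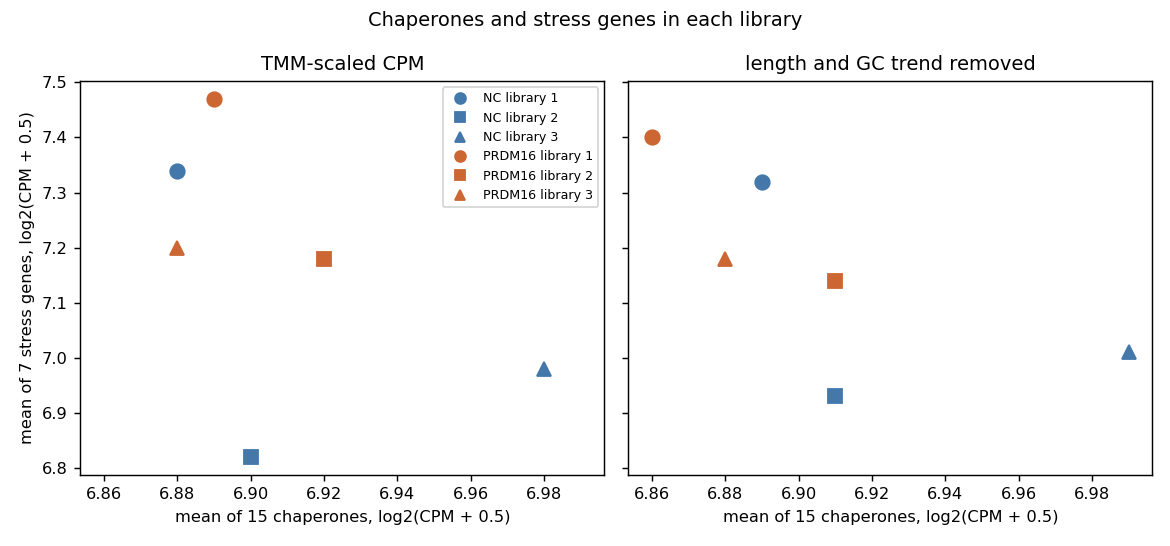
Mean log2(CPM + 0.5) of the 15 chaperone genes (horizontal axis) against that of the 7 stress genes (vertical axis) in each library, with axes of different scale. The libraries spread from 6.82 to 7.47 on the stress axis and only from 6.88 to 6.98 on the chaperone axis, and the NC and PRDM16 points overlap.

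Genes that carry the ER stress elements lay on both sides of 0. Of the 25 genes with ERSE in the window, 16 were tested, 8 of them were above 0, and their median log2 fold change was 0.01. These 16 include members, and the 9 that are no members had a median of 0.02. Of the genes with ERSE-II, 14 were tested, 8 were above 0, and the median was 0.15, or 0.01 with the trends removed. The 11 of these 14 that are no members had a median of 0.19, or 0.01 with the trends removed. Of those with the composite C/EBP-ATF site, 348 were tested, 131 were above 0 (37.6%, against 47.3% of all genes), and the median was -0.07, or -0.01 with the trends removed. The 3 members with ERSE-II, HYOU1, SDF2L1 and HERPUD1, had values of -0.58, 0.37 and 0.12. With the trends removed these were -0.64, -0.02 and 0.12. A matched element is a description of letters in a window and not a measured site.

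No gene passed the edgeR test in any of 6 lists of related genes, and DESeq2 and limma-voom also called 0 in each. In the other ER folding enzymes, 18 were tested, 3 were higher (16.7%, against 9.80% of all genes) and 0 lower (against 7.08%) at an unadjusted edgeR p under 0.05, and the median log2 fold change was -0.01. Their smallest p-values belonged to TXNDC5, a thioredoxin-like disulfide isomerase (log2 fold change 0.49 ± 0.15), SIL1, the other nucleotide exchange factor of BiP (0.26 ± 0.12), and the prolyl isomerase PPIB (0.26 ± 0.12). These were 0.47, 0.13 and 0.04 with the trends removed. SIL1 and HYOU1, which share that role on BiP, thus had values of opposite sign. In the translocon and signal peptide list, 15 were tested, 1 was higher and 1 lower (6.67% each), with a median of 0.01 and with SSR4 at 0.31, SPCS3 at -0.31 and SPCS1 at 0.26. SSR4 was 0.07, SPCS3 -0.12 and SPCS1 0.31 with the trends removed.

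In the other degradation genes, 17 were tested, 4 were higher (23.5%, against 9.80% of all genes) and 1 lower (5.88%, against 7.08%), with a median of 0.01. EDEM2, a mannosidase that starts the trimming step before EDEM1 acts, was at 5.06, 3.30 and 4.70 CPM with NC and 7.90, 5.50 and 6.85 CPM with PRDM16. All 3 PRDM16 libraries were above all NC libraries, with a log2 fold change of 0.63 ± 0.19 (edgeR adjusted p = 0.168) and 0.53 with the trends removed, opposite in sign to EDEM1. AUP1 followed with 0.31 ± 0.12 and EDEM3, another mannosidase-like protein, with -0.34 ± 0.13. AUP1 was 0.12 and EDEM3 -0.08 with the trends removed. Whether the 3 EDEM genes differ from each other in response was not tested.

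In the other sensors, proteases and factors, 10 were tested, 3 were higher (30%, against 9.80% of all genes) and 1 lower (10%, against 7.08%), with a median of 0.04. None of the 10 had an unadjusted edgeR p under 0.05 with the trends removed. The apoptosis gene BBC3 had 0.33, the IRE1 adaptor TRAF2 0.31 and MBTPS2, the protease that makes the second cut in ATF6, -0.30. With the trends removed these were 0.04, 0.11 and -0.12. In the other genes of the integrated stress response, 30 were tested, 5 were higher (16.7%) and 1 lower (3.33%), with a median of 0.04. Their smallest p-values were those of the eIF2α kinase EIF2AK2 (-0.33 ± 0.13), the secreted stress factor GDF15 (0.36 ± 0.15) and the amino acid transporter SLC7A5 (0.29 ± 0.13). With the trends removed these were -0.07, 0.12 and 0.16. In the cytosolic heat shock genes, 15 were tested, 1 was higher and 1 lower (6.67% each), with a median of -0.06 and with HSPB1 at 0.31, HSPA4 at -0.25 and HSPH1 at -0.26. HSPB1 was -0.05, HSPA4 -0.08 and HSPH1 -0.04 with the trends removed. With the trends removed, 1 of the 18 folding enzymes and 2 of the 17 other degradation genes had an unadjusted edgeR p under 0.05. At that threshold there were 3 of the 30 integrated stress response genes and 0 in the translocon and heat shock lists. Over all genes the share was 6.60%.

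**Figure D4:**
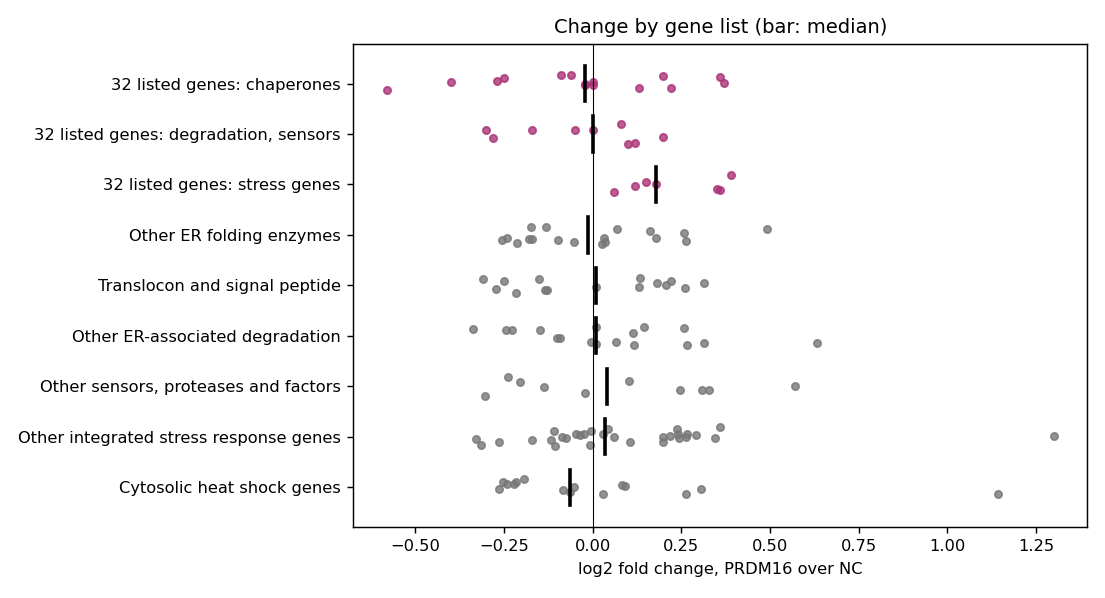
Log2 fold change of each tested gene, PRDM16 against NC, in the member groups and the 6 related lists, with the median of each. The medians lie between -0.06 and 0.18, with the ATF4-type stress genes the highest, beside -0.02 over all genes tested.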

How the data were processed

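The 6 deposited tables give whole-number counts, FPKM and TPM for each gene, per the file headers. The genome was hg38 (per the submitters' processing notes). Aligner and counter: not given in the sources used here. In each library, the deposited FPKM equalled counts divided by length and total count, and the deposited TPM summed to 1000000 in each library; TPM was used for that check only. Lines of 7 genes were broken and were rejoined. Counts and FPKM were summed over rows with the same gene name (2008 names had more than 1 row). No pair of libraries agreed within sampling noise (chi-square per degree of freedom 8.27 to 56.4). Per the labels' protocols, RNA was oligo(dT)-selected and primed with random hexamers.

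edgeR 4.0.16 (R 4.3.3) was used with TMM scaling, its expression filter (minimum count 10) and a robust quasi-likelihood fit. P-values were adjusted by Benjamini-Hochberg over all 15053 genes tested. The common coefficient of biological variation was 0.139. CPM are TMM-scaled, and a standard error is the fold change divided by the root of F. The permutation test of PRDM16 used log2(CPM + 0.1). The scripts were tested on simulated counts. Trend removal regressed each library's log2 deviations on splines (5 degrees of freedom) of log2 length and GC content, for 13575 genes (90.2%). Alternatives used DESeq2 1.42.0 and limma-voom 3.58.1.

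Members and lists were chosen with earlier results of these data known. Named with every library are the 8 members with the smallest p, the 2 most abundant chaperones and stress genes, ATF6, XBP1, ERN1, ATF4 and DDIT3, and of each related list the 3 genes with the smallest p are named; HSPA5, ASNS, DERL3 and other single values were added after the values were seen.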

Additional observations from a re-analysis of the deposited data

How the results depend on the processing

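The count of genes passing, 18 in the analysis reported, was 11 with DESeq2-type size factors, 114 with no count filter, 37 with DESeq2, 5 with length and GC trends removed and 10 with listings kept apart (added after seeing the data). Leaving out 1 library gave 13 (without NC replicate 2) to 148 (without NC replicate 3). Members passing went from 0 to 1, HYOU1, with upper-quartile factors, with no count filter and with DESeq2, and ranged from 0 to 1 over the fits without 1 library. Summing numbered listings is what the reported analysis already does, so it gave no separate value.

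Replicate numbers are shared by both groups, but over all genes tested same-numbered libraries did not deviate together (r = 0.119, -0.124 and -0.153, against -0.112 to 0.239 for different numbers). In the 7 stress genes, replicate 1 was the highest of its group in 7 with NC and in 6 with PRDM16. With the number as a replicate block, 22 genes passed, 11 higher and 11 lower, and 0 members. The unadjusted edgeR p fell from 0.1 to 0.00961 for TRIB3 and from 0.0114 to 0.00483 for CHAC1 (adjusted p = 0.308 and 0.276). For HYOU1 the unadjusted edgeR p rose from 9.9e-05 to 3.5e-04 (adjusted p = 0.108). Block and trend removal together gave 5 genes.

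Of 466 alternative log2 fold changes for 31 members, 421 kept direction and call, 4 (HYOU1) passed newly, and 41, in 14 members, changed sign; 17 members never did. With trends removed, HSPA5 was 0.02, DNAJB9 0.08, SDF2L1 -0.02, PDIA3 0.06, PDIA4 -0.05, PDIA6 0.05, DERL1 0.01, ATF6 0.04 and PPP1R15A -0.003. With block and trends removed, these were HSPA5 0.02, DNAJB9 0.09, SDF2L1 -0.02, PDIA3 0.06, PDIA4 -0.06, PDIA6 0.05, DERL1 0.01 and ATF6 0.04. PDIA4 and ERN1 were -0.004 and -0.002 with DESeq2-type size factors and with DESeq2, both -0.01 with upper-quartile factors, and PDIA4 was -0.0008 with listings apart. Leaving out 1 library gave ranges of -0.06 to 0.03 for DNAJB9, -0.09 to 0.04 for PDIA3, -0.05 to 0.05 for PDIA4, -0.07 to 0.10 for PDIA6, -0.11 to 0.01 for DERL1, -0.002 to 0.18 for XBP1, -0.08 to 0.14 for ERN1, -0.03 to 0.13 for ATF4, -0.01 to 0.24 for ATF3 and -0.002 to 0.30 for DDIT3. The chaperone mean difference was -0.08 on the deposited FPKM, with a pseudocount of 0.5 or 1. Why these values differ was not tested. Depth limits DERL3 most, with 4 to 13 counts in 5 of its 6 libraries.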

Other observations

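SESN2, a sestrin induced by ATF4, had the largest fold change of any gene in the related lists and is named after its values were seen. It had 599, 457 and 314 counts with NC and 1820, 605 and 1037 counts with PRDM16. PRDM16 replicate 1 was highest, at 94.6 CPM beside 15.1 to 26.1 CPM in the other 5 libraries. The log2 fold change was 1.30 ± 0.75 (edgeR adjusted p = 0.413), or 1.13 with the trends removed. SESN2 has 2 listings, which were summed, and their separate values are not given here. PRDM16 replicate 1 was also the highest of all 6 libraries in 5 of the 7 stress genes among the members.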
